A study of Mus musculus with 8 samples.

Results

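The Peg3 domain is an imprinted cluster on mouse chromosome 7, and 4 of its genes were taken by symbol from the 22810 gene rows of the allele-specific count table: Peg3, Peg3os, Usp29 and Aurkc. All 4 had a row, and all 4 were among the 12565 autosomal genes in which some allele library reached 10 reads (an allele library is 1 parental allele of 1 embryo). RNA of single blastocysts at embryonic day 3.5 (E3.5), obtained by natural mating and lysed without in vitro culture, was sequenced after full-length cDNA amplification (SMART-Seq2). In the forward cross (3 embryos) the mother was C57BL/6 (B6) and the father Mus musculus castaneus (cast), and in the reverse cross (5 embryos) the mother was cast and the father B6. Both groups were untreated F1 hybrids, so every embryo carried 1 B6 and 1 cast allele, the cross was the only labelled condition, and no embryo of either pure strain was included. A whole blastocyst mixes trophectoderm, epiblast and primitive endoderm, so fewer cells of a type and less RNA per cell cannot be told apart. Each value below counts reads that span a strain-specific single nucleotide polymorphism (SNP) and so name the allele of origin.

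An imprinted gene is transcribed mainly from the allele inherited from one parent, which is commonly set by DNA methylation laid down in a germ line at a control region. In the Peg3 domain the control region is methylated on the maternal allele and covers the shared start region of Peg3 and Usp29, which are transcribed away from each other. Peg3 encodes a large zinc finger protein of the paternal allele that is known from placenta, brain and maternal behaviour, Usp29 encodes a ubiquitin-specific protease, Peg3os is an antisense RNA of Peg3, and Aurkc encodes Aurora kinase C, a chromosomal passenger kinase best known from germ cells and early embryos.

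In mm10, Peg3 (ENSMUSG00000002265.16) lies on the minus strand at chr7:6703892-6730431 with 4 annotated transcripts. Peg3os is listed by RefSeq as an antisense RNA at chr7:6706760-6707624, and all of its 865 bases fall inside a 7840-base exon of Peg3 at chr7:6703892-6711731. Usp29 (ENSMUSG00000051527.11) starts 147 bases from the start of Peg3 on the plus strand and runs over chr7:6730578-6967219 with 9 transcripts. Aurkc (ENSMUSG00000070837.5) follows on the plus strand at chr7:6995300-7003091, 28081 bases beyond the end of Usp29, with 5 transcripts. The promoters of Peg3 and Aurkc are shown because Peg3 was the member with the most paternal reads and Aurkc the member farthest from the control region. Each is the 300-base RefSeq window of GRCm38.p6 from 250 bases before to 50 bases after the start, written 5′ to 3′ on the gene's own strand, with CpG dinucleotides in capitals, at chr7:6730370-6730669 (minus strand) and chr7:6995135-6995434 (plus strand).
Peg3: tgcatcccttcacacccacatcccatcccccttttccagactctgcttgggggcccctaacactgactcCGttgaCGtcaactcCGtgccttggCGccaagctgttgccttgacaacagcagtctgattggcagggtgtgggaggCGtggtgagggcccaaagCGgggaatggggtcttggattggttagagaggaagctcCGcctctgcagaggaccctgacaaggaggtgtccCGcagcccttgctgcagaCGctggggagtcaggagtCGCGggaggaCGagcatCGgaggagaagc
Aurkc: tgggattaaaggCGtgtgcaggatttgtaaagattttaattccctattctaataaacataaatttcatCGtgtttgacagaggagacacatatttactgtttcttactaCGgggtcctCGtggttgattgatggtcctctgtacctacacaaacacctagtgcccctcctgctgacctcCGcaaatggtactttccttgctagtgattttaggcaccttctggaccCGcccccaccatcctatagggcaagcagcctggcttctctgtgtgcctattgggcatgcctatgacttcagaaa

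The Peg3 window held 13 CpG dinucleotides and 61.3% G or C, and the Aurkc window held 6 CpG dinucleotides and 46.0% G or C, against a median of 7 CpG dinucleotides over 32851 mouse promoter windows. The Usp29 window (chr7:6730333-6730632, plus strand) held 17 CpG dinucleotides and overlapped that of Peg3 by 263 bases, which are read from the opposite strand, so that these 2 genes start within nearly the same stretch of DNA. The core letters bound by YY1 (GCCAT) and by ZFP57 (TGCCGC), which can share the letters GC and were searched on both strands, were in none of the 3 windows, whereas 40.5% and 11.6% of all windows held them. No match describes these 300 bases only.

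The embryos held between 1060063 and 1632695 SNP-spanning reads, and B6 reads made up 57.4% to 58.3% of them. Reverse embryo 1 stood apart, with a mean correlation with the other embryos of 0.739, against 0.851 to 0.873 for the other 7 embryos (Pearson's r of log2(RPM + 1), where RPM is reads per 1000000 SNP-spanning reads of the embryo, across genes, which are not independent replicates). Markers of trophectoderm (6 of 6 genes with reads), epiblast (5 of 5) and primitive endoderm (5 of 5) were detected. The 8 leukocyte and macrophage markers, of which none was at 0, were at 40.8 to 860 RPM in the forward embryos and 3.77 to 5.34 in the reverse embryos, and 98.5% of their reads were maternal. The highest of these values was that of forward embryo 1. Oocyte markers (8 of 10 in the table, none at 0, 75.5% maternal) were at 7.81 to 20.2 and 9.97 to 19.5 RPM in the forward and reverse embryos. The corresponding ranges were 9.39 to 14.8 and 9.97 to 21.3 for cumulus markers, 3.91 to 11.3 and 2.67 to 51.2 for the 2 red blood cell markers in the table, and 715 to 876 and 909 to 1240 for uterus and oviduct epithelium markers, a list that includes Epcam, which trophectoderm also expresses.

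Peg3 was read almost only from the paternal allele in both crosses. Its maternal and paternal reads were 0 and 37 in forward embryo 1, 0 and 21 in forward embryo 2, and 0 and 24 in forward embryo 3. They were 1 and 9 in reverse embryo 1, 0 and 23 in reverse embryo 2, 1 and 65 in reverse embryo 3, 1 and 38 in reverse embryo 5, and 0 and 44 in reverse embryo 7. The paternal allele was higher in 8 of 8 embryos, whether it was cast or B6, and the ranges of the alleles did not overlap. In sum, 3 maternal reads stood against 261 paternal reads, a ratio of 87.0 (exact 95% interval for counting error 29.4 to 425). Averaged over embryos, paternal reads made up 100% ± 0 of forward reads (SD, n = 3) and 97.2% ± 4.16 of reverse reads (SD, n = 5). None of the 82 forward reads was maternal. The leukocyte markers were at 860, 40.8 and 56.4 RPM in forward embryos 1, 2 and 3, with 1401 maternal and 3 paternal marker reads in forward embryo 1. The part of those cells in the Peg3 reads was not tested.

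The parental difference of Peg3 was a log2 fold change of 6.05 ± 0.68 (paternal over maternal, SE, edgeR's quasi-likelihood test, adjusted p = 5.46e-06), which ranked 16 of 12565 by p. The threshold, an adjusted p of at most 0.1, was passed by 179 of all tested genes (1.42%), with the paternal allele higher in 139 (1.11%) and the maternal allele in 40 (0.318%). With a term for each embryo 389 genes passed, and Peg3 had a log2 fold change of 6.61 (edgeR's quasi-likelihood test, adjusted p = 5.08e-07). Leaving out each embryo in turn, reverse embryo 1 and forward embryo 1 included, gave log2 fold changes of Peg3 from 5.81 to 6.40 (edgeR's quasi-likelihood test, highest adjusted p = 0.000156). Peg3 was the only one of the 4 genes that passed. Paternal reads exceeded maternal reads in every embryo for 149 of the tested genes (1.19%), and Peg3 was among them. The B6 and cast alleles of Peg3 differed by 0.15 ± 0.56 on the log2 scale (cast over B6, SE, 95% interval -1.0 to 1.30, edgeR's quasi-likelihood test, adjusted p = 0.926). With a term for each embryo the strain value was 1.36 (edgeR's quasi-likelihood test, adjusted p = 0.256), beyond that interval, and it did not pass in either fit.

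**Figure D1:**
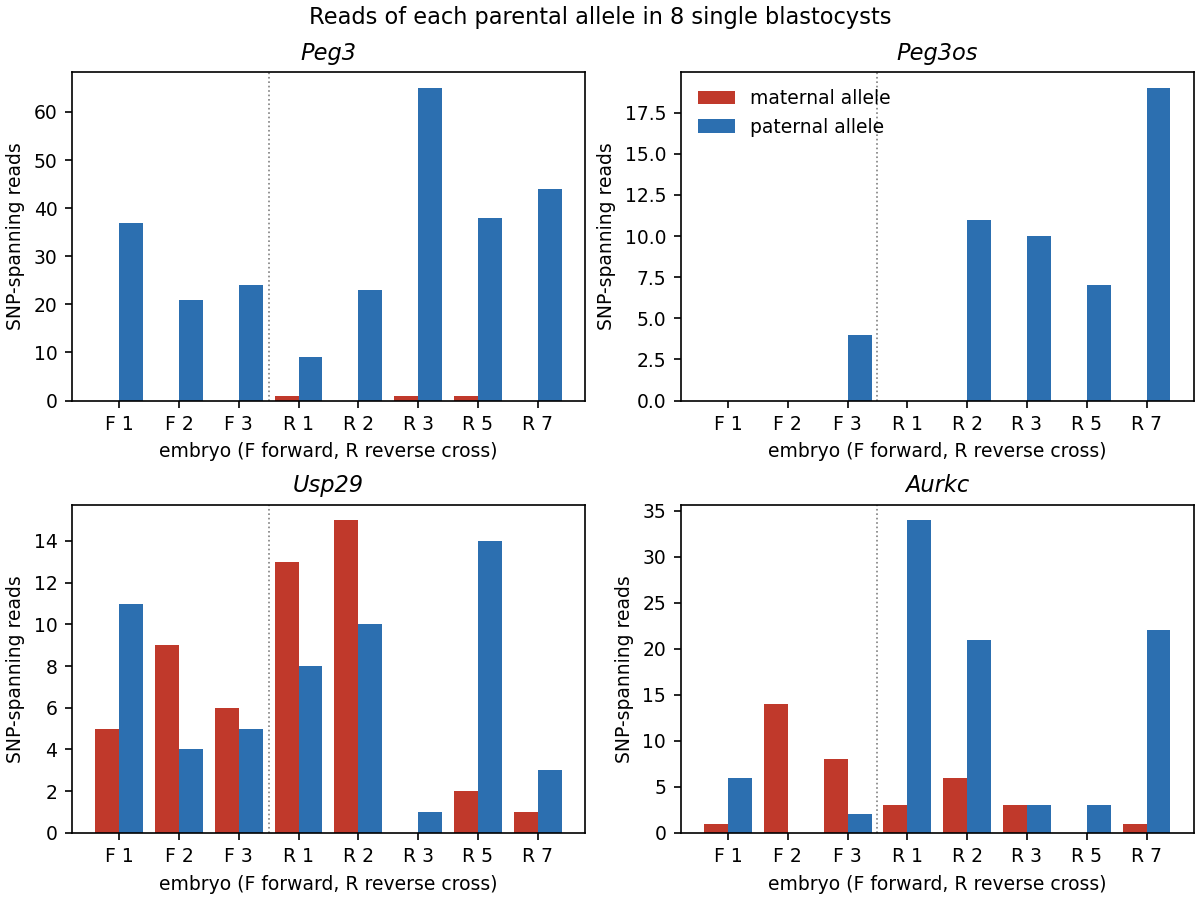
SNP-spanning reads of the maternal (red) and paternal (blue) allele of each gene in the 3 forward (F) and 5 reverse (R) embryos, with a separate scale for each gene. Peg3 and Peg3os have paternal bars almost alone, Usp29 has both in 7 embryos, and the higher Aurkc bar changes side between forward embryos 2 and 3 and the reverse cross.

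Peg3os also had no maternal read, but reads were found in fewer embryos. Forward embryos 1 and 2 and reverse embryo 1 had no Peg3os read. The paternal reads were 4 in forward embryo 3, 11 in reverse embryo 2, 10 in reverse embryo 3, 7 in reverse embryo 5 and 19 in reverse embryo 7. The paternal allele was thus higher in 5 of 8 embryos and equal at 0 in the other 3. With 0 of 51 reads maternal, paternal reads were at least 17-fold higher (against a floor of 3 counts over all embryos), which allows a maternal share of up to 5.88%. The paternal excess did not pass the threshold (edgeR's quasi-likelihood test, unadjusted p = 0.00245, adjusted p = 0.142), and it passed without reverse embryo 1 (adjusted p = 0.0643) and with no filter on low counts (adjusted p = 0.00760). Leaving out each embryo in turn gave adjusted p between 0.0643 and 0.664 with edgeR's quasi-likelihood test. The strain difference was a fitted log2 fold change of -2.05 (95% interval -4.96 to 0.87, edgeR's quasi-likelihood test, adjusted p = 0.425), which rests on 47 B6 and 4 cast reads, all paternal.

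Since Peg3os lies wholly within an exon of Peg3 and the sources used here do not state that counting used strand, reads of these overlapping genes may not be separable. Peg3os reads were fewer than Peg3 reads in every embryo. Per 100 paternal Peg3 reads forward embryo 3 had 16.7 Peg3os reads and the other forward embryos had 0. The reverse embryos, by embryo number, had 0, 47.8, 15.4, 18.4 and 43.2. The crosses overlapped, the forward mean being 5.56 ± 9.62 (SD, n = 3) and the reverse mean 25 ± 20.1 (SD, n = 5; exact two-sided permutation test over 56 arrangements, p = 0.25). This ratio was chosen after the values had been seen.

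Usp29, which starts in the same region as Peg3, was read from both alleles. Its maternal and paternal reads were 5 and 11 in forward embryo 1, 9 and 4 in forward embryo 2, and 6 and 5 in forward embryo 3. They were 13 and 8 in reverse embryo 1, 15 and 10 in reverse embryo 2, 0 and 1 in reverse embryo 3, 2 and 14 in reverse embryo 5, and 1 and 3 in reverse embryo 7. The paternal allele was higher in 4 embryos and the maternal allele in 4, and the alleles overlapped within both crosses. Over all embryos 51 reads were maternal and 56 paternal, a paternal share of 52.3% (exact 95% interval 42.5% to 62.1%, for counting error of the pooled reads only, not the spread between embryos). Averaged over embryos, paternal reads made up 48.3% ± 19.2 of forward reads (SD, n = 3) and 68.1% ± 28 of reverse reads (SD, n = 5), the latter with embryos of 1 and 4 reads. These shares are not corrected for the excess of B6 over cast reads in every embryo. Scaled by the size of each allele library, the means were 53.3% and 64.2%. The gene Zim3, which is antisense to Usp29, shares 2582 exonic bases with it, so reads of these genes may not be separable there. Whether reads of Zim3 entered the Usp29 counts was not tested.

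The parental difference of Usp29 was a log2 fold change of 0.07 ± 0.67 (SE, 95% interval -1.32 to 1.46, edgeR's quasi-likelihood test, adjusted p = 1.0). The interval reaches past a log2 fold change of 1 in either direction, and Usp29 did not pass the test of equivalence, which asks whether the alleles differ by less than that (edgeR, unadjusted p = 0.0957, adjusted p = 0.194). Among all tested genes 35.6% passed the equivalence test, and none of the 4 genes did, also at an unadjusted p under 0.05. The strain difference was 0.11 ± 0.67 (SE, edgeR's quasi-likelihood test, adjusted p = 0.954).

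Within an embryo, the paternal share of Peg3 was higher than that of Usp29 by 37.5 ± 25.3 percentage points (SD, n = 8), in 7 of 8 embryos. An exact two-sided sign-flip permutation test gave p = 0.0156 (0.0313 adjusted over 2 such comparisons), where 0.00781 is the smallest value that 8 embryos allow. The exception was reverse embryo 3, where Usp29 had a single read. The limit from the overlap of Usp29 with Zim3 also holds for this comparison. Both comparisons were chosen after the values had been seen. Since the paternal share of Peg3 was at 90% or more in all 8 embryos, their direction was nearly fixed beforehand.

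**Figure D2:**
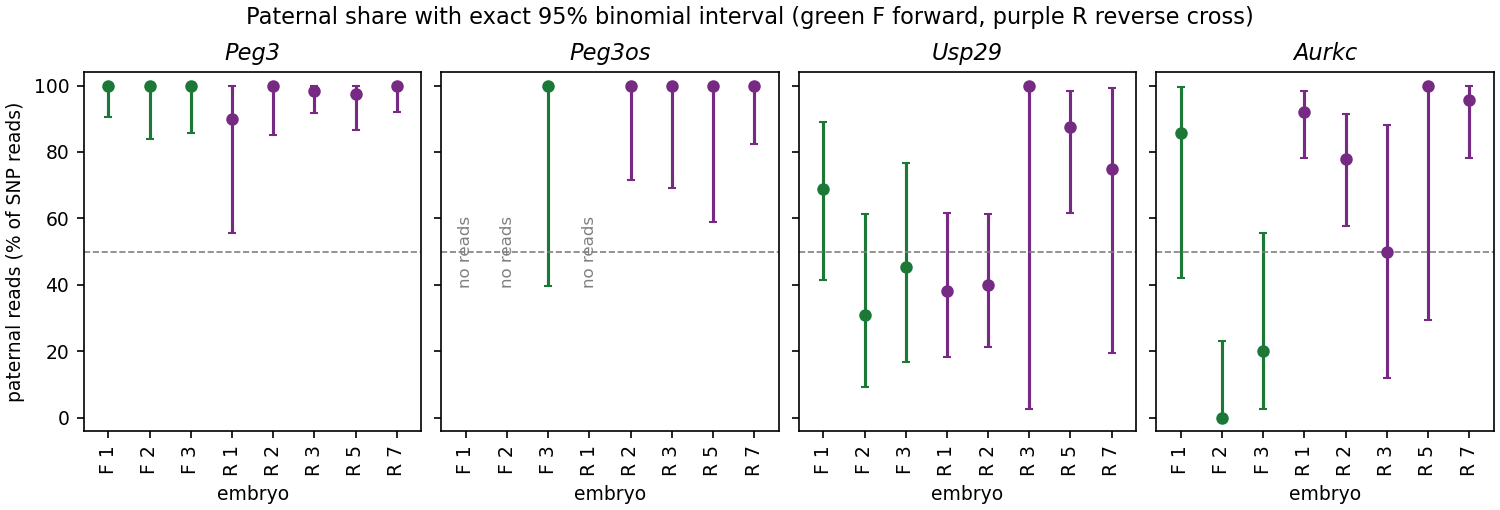
Paternal reads as a percentage of all SNP-spanning reads of each gene and embryo (points), with exact 95% binomial intervals (bars, counting error only) for the forward (green) and reverse (purple) cross. Peg3 lies at 90% or more in all 8 embryos, whereas Usp29 runs from 30.8% to 100% and Aurkc from 0% to 100%. The shares are not scaled by library size, and B6 reads were 57.4% to 58.3% of all reads in these embryos.

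Aurkc was read from both alleles, and more of its reads were B6 than cast in both crosses. Its maternal and paternal reads were 1 and 6 in forward embryo 1, 14 and 0 in forward embryo 2, and 8 and 2 in forward embryo 3. They were 3 and 34 in reverse embryo 1, 6 and 21 in reverse embryo 2, 3 and 3 in reverse embryo 3, 0 and 3 in reverse embryo 5, and 1 and 22 in reverse embryo 7. The maternal allele was higher in forward embryos 2 and 3, the paternal allele in forward embryo 1 and 4 of the 5 reverse embryos, and the ranges of the crosses overlapped. Averaged over embryos, paternal reads made up 35.2% ± 44.8 of forward reads (SD, n = 3) and 83.1% ± 20.3 of reverse reads (SD, n = 5). Scaled by the size of each allele library, these means were 37.4% and 80.4%. Counted by strain, 106 reads were B6 and 21 were cast, or 83.5% B6, with B6 higher in 6 of 8 embryos.

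The strain difference of Aurkc was -1.86 ± 0.77 on the log2 scale (cast over B6, SE, 95% interval -3.45 to -0.26), which did not pass the threshold (edgeR's quasi-likelihood test, unadjusted p = 0.0244, adjusted p = 0.135). Of all tested genes 1945 (15.5%) passed, 1386 (11.0%) with the B6 and 559 (4.45%) with the cast allele higher, and 3207 passed with a term for each embryo. None of the 4 genes was among the 1945. Only Aurkc of the 4 had an unadjusted p under 0.05, and the count of such genes over all tested genes is not given here. With DESeq2, 2187 of the 12565 tested genes passed the strain test, Aurkc among them (adjusted p = 0.0829). Aurkc also passed in edgeR's quasi-likelihood test with 1 library size per embryo (adjusted p = 0.0556), with no filter on low counts (adjusted p = 0.0938) and without forward embryo 1 (adjusted p = 0.0873), and leaving out each embryo in turn gave adjusted p from 0.0873 to 0.548. That embryo, the only one with more cast than B6 reads of Aurkc, was also the one with the highest leukocyte marker level. Its leukocyte marker reads were 1401 maternal, which is B6 in that cross, and 3 paternal. The part of those cells in the result was not tested. The parental difference was 0.49 ± 0.77 (SE, 95% interval -1.10 to 2.08, edgeR's quasi-likelihood test, adjusted p = 1.0). Within an embryo, the paternal share of Peg3 exceeded that of Aurkc by 33.1 ± 39.1 percentage points (SD, n = 8), in 6 of 8 embryos (exact two-sided sign-flip permutation test, p = 0.0391, also 0.0391 adjusted over the 2 comparisons). The direction was nearly fixed beforehand, as for Usp29. The differences were largest in forward embryos 2 and 3, where the higher Aurkc allele was maternal and B6, so a strain difference of Aurkc can also move this comparison.

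**Figure D3:**
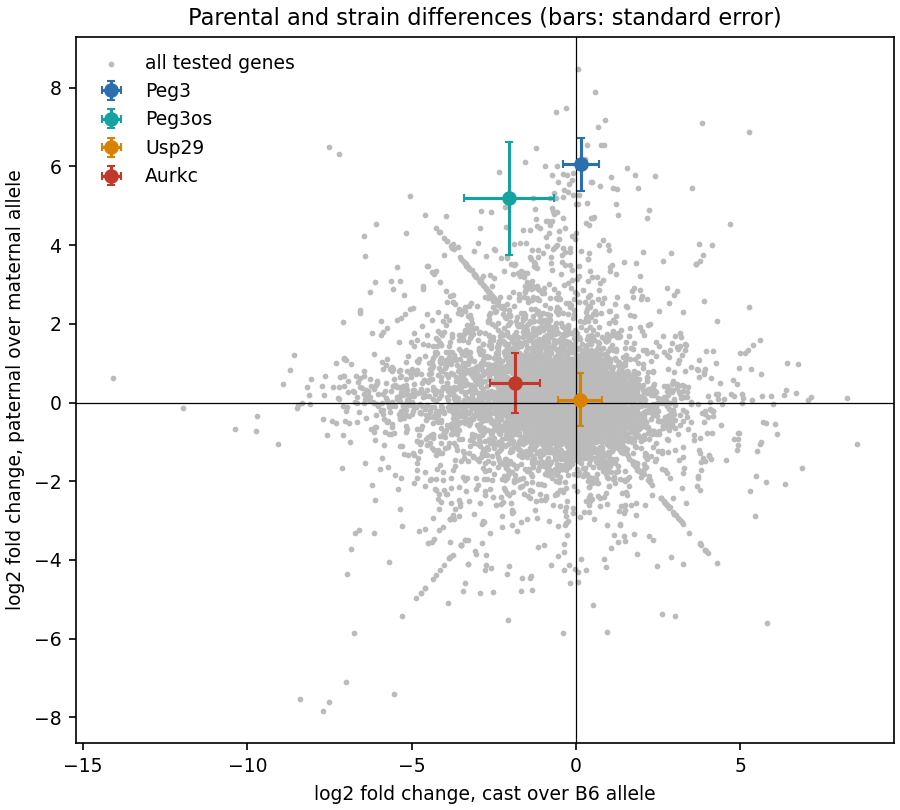
Fitted log2 fold change of the paternal over the maternal allele (vertical axis) against that of the cast over the B6 allele (horizontal axis) for 12565 tested genes (grey) and the 4 genes of the domain (coloured, bars give the SE). Peg3 sits at 6.05 on the parental axis near 0 on the strain axis, Usp29 near 0 on both and Aurkc at -1.86 on the strain axis, while the value of Peg3os depends on the prior count because no maternal read was found.

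The read levels of the 4 genes overlapped between the crosses and had larger SDs among the reverse embryos, a difference in spread that was not tested. SNP-read totals depend on the SNPs of each transcript, so levels were compared between crosses and not between genes. With both alleles summed, Peg3 was at 18.2, 18.8 and 22.7 RPM in the forward embryos and at 6.64, 14.4, 29.3, 41.5 and 44.0 in the reverse embryos, in rising order. Its lowest level was that of reverse embryo 1, the embryo that stood apart. The means were 19.9 ± 2.41 (SD, n = 3) and 27.2 ± 16.4 (SD, n = 5), and the crosses overlapped. Peg3os was at 1.04 ± 1.81 and 7.35 ± 6.54, Usp29 at 9.90 ± 1.34 and 9.21 ± 6.60, and Aurkc at 8.09 ± 3.94 and 13.9 ± 10.2 RPM in the forward and reverse cross (SD, n = 3 and n = 5). Usp29 was lowest in reverse embryo 3 (0.667 RPM), in which Peg3 was highest. Aurkc, in contrast, was highest in reverse embryo 1 (24.6 RPM), in which Peg3 was lowest.

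In the edgeR test of reverse against forward totals none of the 4 genes passed. In that test 13 of all tested genes (0.103%) passed and 7.38% had an unadjusted p under 0.05. With this filter and all 8 embryos, none of the 4 had an unadjusted p under 0.05 or passed with DESeq2. The log2 fold changes were 0.51 ± 0.59 for Peg3, 2.75 ± 1.47 for Peg3os, -0.14 ± 0.75 for Usp29 and 0.73 ± 0.75 for Aurkc (SE). The 95% intervals ran from -0.75 to 1.77 for Peg3, -0.41 to 5.91 for Peg3os, -1.76 to 1.48 for Usp29 and -0.88 to 2.35 for Aurkc, so that a 2-fold higher level in the reverse cross was within all of them. The value of Peg3os rests on few reads. Its unadjusted p was 0.0179 without forward embryo 3, where no forward read is left, 0.0198 without reverse embryo 1 and 0.0315 with no filter on low counts, and its adjusted p was at least 0.284 in all alternatives run with edgeR's quasi-likelihood test or DESeq2.

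**Figure D4:**
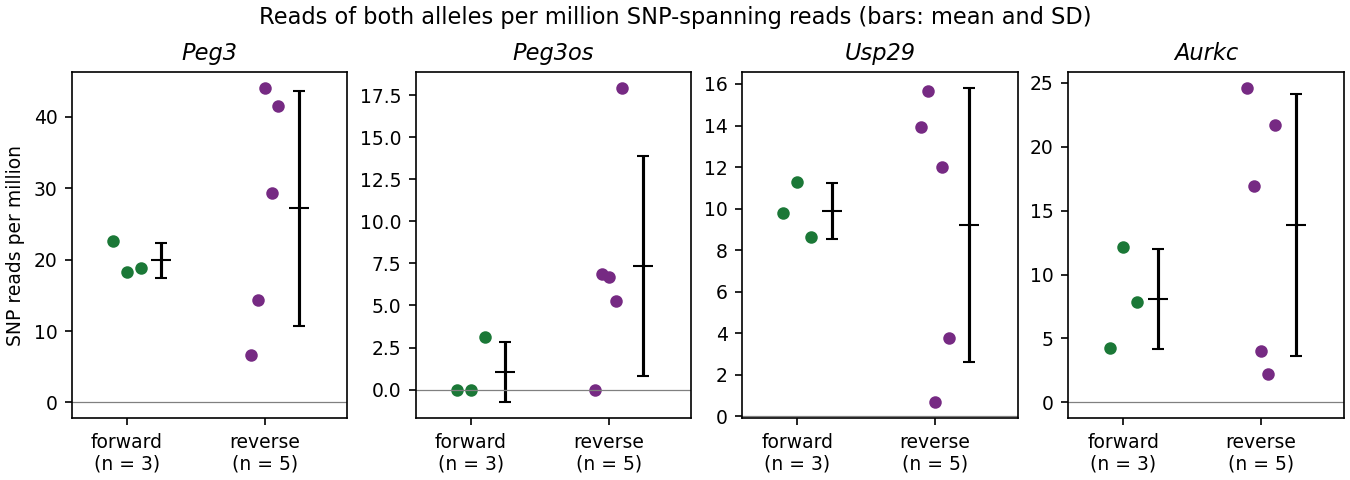
Reads of both alleles of each gene in RPM (points, 1 per embryo) with the mean and SD of each cross (black), on a separate scale for each gene. The reverse embryos cover the range of the forward embryos for Peg3, Usp29 and Aurkc, and 4 of the 5 reverse embryos lie above all forward embryos for Peg3os.

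Of the other genes of the domain, the zinc finger genes Zim1, Zim2 and Zim3 had rows. Zim1 had 2 maternal reads and 1 paternal read over all embryos and Zim2 had 8 and 5, too few to be tested. Zim3, which is antisense to Usp29 and shares 11535 bases of its span and 2582 exonic bases, had 65 maternal and 23 paternal reads, a log2 fold change of -0.76 ± 1.11 (SE, edgeR's quasi-likelihood test, adjusted p = 1.0). Its strain difference was 1.68 ± 1.09 on the log2 scale (cast over B6, SE, edgeR's quasi-likelihood test, adjusted p = 0.390). Its maternal and paternal reads were 0 and 8, 4 and 0, and 0 and 1 in the forward embryos. Reverse embryo 1 had 31 and 1, embryo 2 had 14 and 9, embryo 3 had 0 and 1, embryo 5 had 15 and 1, and embryo 7 had 1 and 2. The higher allele of Zim3 was paternal in 4 embryos and maternal in 4, and reads of Zim3 and Usp29 may not be separable where they overlap. Zfp264 was not analysed here.

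Within 500 kb of the 4 genes, 15 other genes had rows and 8 were tested. None passed the parental test with edgeR or DESeq2, 1 (the predicted gene model Gm38944, with 1 maternal and 17 paternal reads) had an unadjusted p under 0.05, and the median log2 fold change was 0.11 against -0.01 over all tested genes. One zinc finger gene, Zfp583, had a higher cast than B6 allele (log2 fold change 1.64 ± 0.57, SE, edgeR's quasi-likelihood test, adjusted p = 0.0706).

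**Figure D5:**
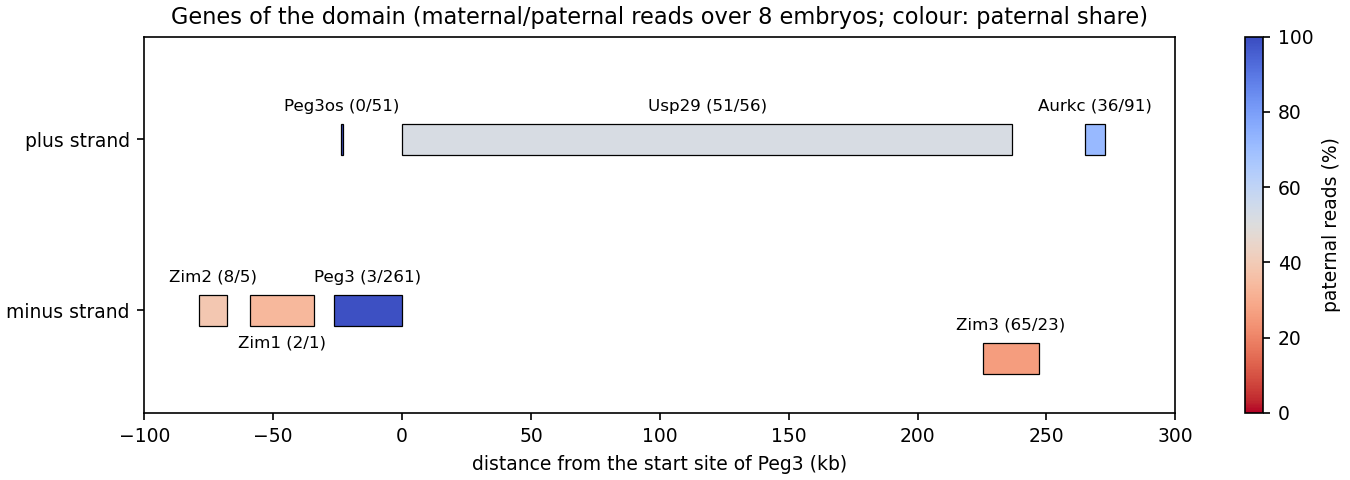
Map of the genes of the domain by distance from the start of Peg3 in kb, with plus-strand genes above and minus-strand genes below, and maternal/paternal reads over 8 embryos in brackets. Colour gives the paternal share of these reads, which is 98.9% for Peg3 and 100% for Peg3os and between 26.1% and 71.7% for the genes to their right. These shares pool 3 forward and 5 reverse embryos, so a strain difference can also move them. Usp29, Zim3 and Aurkc did not pass the parental test. Peg3os is drawn on the strand opposite to Peg3 because RefSeq lists it as antisense.

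The genes that work with the products of the domain were read from both alleles. Of 9 partners and paralogues of Aurora kinase C, among them the kinases Aurka and Aurkb and the passenger complex genes Incenp, Birc5 and Cdca8, none passed the parental or the strain test with edgeR or DESeq2, and none had an unadjusted p under 0.05. Aurkb, the closest relative in the passenger complex, had 578 maternal and 601 paternal reads, and the median parental log2 fold change of the 9 genes was 0.05. Likewise none of 4 genes for reported partners of the PEG3 protein (Siah1a, Traf2, Trp53 and Bax) passed either test with edgeR or DESeq2, and none had an unadjusted p under 0.05. Of 8 factors that bind or maintain imprinted control regions, none passed the parental test with edgeR or DESeq2 and 1 (Dnmt1, the maintenance DNA methyltransferase) had an unadjusted p under 0.05, with 332 maternal and 670 paternal reads (edgeR's quasi-likelihood test, adjusted p = 0.319). Dppa3, which protects maternal methylation in the zygote, had a higher B6 than cast allele (log2 fold change -1.59 ± 0.31, SE, cast over B6, edgeR's quasi-likelihood test, adjusted p = 0.00101). Zfp57, whose protein binds methylated control regions, had 45 maternal and 21 paternal reads (edgeR's quasi-likelihood test, adjusted p = 0.989).

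Of 17 other genes of imprinted loci with a paternally expressed transcript, 15 had rows, 12 were tested and 8 passed the parental test with the paternal allele higher (1.11% of all tested genes), with a median log2 fold change of 4.43 over the 12. Reads were counted per gene, so transcripts of a gene that differ in imprinting, as at Gnas and Inpp5f, are not separated. The 8 were Snrpn, Snurf, Kcnq1ot1, Mcts2, Airn, Fkbp6, Zdbf2 and Nespas. Kcnq1ot1, a long non-coding RNA, had the same adjusted p as Peg3 (36 maternal and 1422 paternal reads, log2 fold change 5.39 ± 0.61, SE, edgeR's quasi-likelihood test, adjusted p = 5.46e-06). Plagl1, a zinc finger gene, resembled Peg3os in its counts, with 0 maternal and 49 paternal reads and no pass (edgeR's quasi-likelihood test, adjusted p = 0.268).

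The genes whose log2(CPM + 1) over the 16 allele libraries was most like that of Peg3 were Mcts2 (r = 0.955), Snurf (0.939), Gm27198 (0.929), Slc38a4 (0.928) and Gm3134 (0.927), by Pearson's r, which is a description because the points share embryos. Each of these had at most 4 maternal reads, which largely follows from choosing them for likeness to Peg3, itself with 3 maternal reads. Slc38a4, an amino acid transporter gene, had 3 maternal and 1528 paternal reads. Most like Peg3os were Gm33699 and Gm39348, which had equal counts (0 maternal and 23 paternal reads, r = 0.882), and Gpx2 (0.868). The genes most like Usp29 were Ago2 (0.868), Fbxo42 (0.841) and Ttl (0.828), and those most like Aurkc were Alkbh2 (0.836), Zdhhc13 (0.824) and Sox30 (0.815), all with reads of both alleles. Between the members, r was 0.728 for Peg3 and Peg3os, 0.04 for Peg3 and Usp29, 0.11 for Peg3 and Aurkc and 0.25 for Usp29 and Aurkc. It was 0.32 for Peg3os and Aurkc and -0.03 for Peg3os and Usp29. The value for Peg3 and Peg3os spans maternal and paternal libraries, and both genes had almost no maternal reads. It therefore cannot show whether their levels vary together between embryos, and Peg3os also lies within a Peg3 exon.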

How the data were processed

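RNA of 8 single E3.5 blastocysts (3 forward, 5 reverse) was analysed. The deposited values are counts of reads over SNPs, given for the B6 and the cast allele of every gene in each embryo. To make these counts the authors aligned reads to mm10 with STAR (2.5.2b in the submitters' processing notes, another release in the methods), excluded multi-mapping reads and assigned SNP reads to strains with Allelome.Pro. They removed samples 4 and 6 for quality. Whether counting used strand is not given in the sources used here. The methods keep only genes with unambiguously assigned reads, yet rows of overlapping genes are in the table. Amplified reads carry no molecular identifiers, so intervals and floors (3 counts) cover counting error only. The labels do not say whether embryos were littermates, so p-values measure the spread between these embryos.

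Rows were placed with GENCODE M21 (18286), RefSeq (2999) or RefSeq synonyms (415), and 1110 were not placed. X-linked genes were left out, leaving 21055 autosomal genes. The maternal and paternal counts (16 allele libraries) of genes that reached 10 reads in 1 or more allele libraries were fitted in edgeR 4.0.16 (R 4.3.3) with TMM scaling, terms for parent and strain, the quasi-likelihood test and Benjamini-Hochberg adjustment over all 12565 genes (threshold 0.1). The equivalence test used 2 one-sided tests against a log2 fold change of 1. Cross totals were tested on the 8 embryo sums. The code was tested on simulated counts. Alternatives were RLE scaling, 1 library size per embryo, DESeq2 1.42.0, other filters, a term for each embryo (replicate block) and leaving out each embryo. Exact permutation tests used scipy 1.17.1. The alleles of an embryo come from the same animal, which is where the pairing comes from, and their deviations from the group means correlated at 0.07 to 0.42 over embryos (across genes).

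The members, gene lists and tests were chosen with earlier results of these data known. The named genes are the members, the other genes of the domain and within 500 kb, partners of Aurkc and Peg3, control region factors, other genes of imprinted loci with a paternally expressed transcript, marker lists, and the genes with the highest Pearson r to a member among those with at least 20 reads. No protein sequences were used.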

Additional observations from a re-analysis of the deposited data

Results flagged for a closer look

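The paternal share of Peg3 in reverse embryo 1 was 90%, from 10 reads of which 1 was maternal, and lay apart from the other 4 reverse embryos (97.4% to 100%). Its gap to the nearest embryo was 0.744 of the range of the 5 embryos. Of the 7 sets of shares and levels that were checked, this was the only one with such an embryo. Chance alone marks about 1 set in 20, a rate that was not checked for shares that are capped at 100% and rest on few reads. The exact 95% interval of that share, 55.5% to 99.7%, includes the shares of reverse embryos 3 and 5.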

How the results depend on the processing

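The parental difference of Peg3 passed the threshold under all 15 alternatives run (log2 fold change 5.81 to 6.61, highest adjusted p 0.000156), and its paternal share per cross stayed between 96.4% and 100%. The forward share of Aurkc, 35.2%, was 10% without forward embryo 1 and 52.9% without forward embryo 2, within its wide SD of 44.8 points. Peg3os, with no maternal read, had fitted parental log2 fold changes of 5.19 with no filter on low counts, where it passed, and 4.27 to 5.54 when each embryo was left out. With 1 library size per embryo, the strain log2 fold changes were -0.17 for Peg3 and -0.23 for Usp29, both reversed and neither called, and -2.19 for Aurkc, which passed. Aurkc also passed with DESeq2 (-1.91) and with no filter (-1.87). Leaving out each embryo gave strain values of -0.22 to 0.41 for Peg3, -0.20 to 0.44 for Usp29, -2.54 to -1.19 for Aurkc and -4.07 to -1.52 for Peg3os (-4.07 without forward embryo 3, with an unadjusted p of 0.0287 and an adjusted p of 0.192 in edgeR's quasi-likelihood test). The reversals were -0.22 for Peg3 without reverse embryo 1, and -0.20, -0.09 and -0.10 for Usp29 without forward embryo 1, reverse embryo 1 and reverse embryo 2. For the parental difference, the same range was -0.24 to 0.37 for Usp29 and -0.20 to 1.16 for Aurkc, with reversals to -0.24 for Usp29 without forward embryo 1 or reverse embryo 5 and to -0.20 for Aurkc without forward embryo 1. The cross difference of Peg3os ran from 2.14 to 6.41, the highest without forward embryo 3, a fitted value that depends on the prior count because the other forward embryos had no read. That of Usp29 ran from -0.43 to 0.15 and was 0.15 without reverse embryo 3 and 0.04 without reverse embryo 7. The count of parent-biased genes was 406 with no filter, 75 with at least 10 reads in every embryo and 120 to 195 with an embryo left out. The count of strain-biased genes was 1068 with at least 10 reads in every embryo and 1206 to 2453 with an embryo left out, the lowest without forward embryo 1. The replicate block (a term for each embryo) gave 389 parent-biased and 3207 strain-biased genes and strain values of 1.36 for Peg3 (0.15 without it) and -0.049 for Usp29, and changed no call of the 4 genes. Forward and reverse embryos with the same number correlated at 0.00412 to 0.109 and share only a number. Peg3os was not tested under the filterByExpr rule, nor Peg3os, Usp29 and Aurkc with 10 reads required in every embryo. Apart from the fewer genes and embryos that an alternative leaves, the cause was not tested. Depth limits Peg3os most, with 0 to 19 reads per embryo, followed by Usp29 and Aurkc with 1 to 25 and 3 to 37.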
